A study of Homo sapiens with 14 samples.

Results

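The multiciliated cell program is the set of genes that airway, ependymal and reproductive tract epithelia use to build many motile cilia on 1 cell. It was followed here as 48 genes named by symbol, in 6 roles: transcriptional regulators, centriole amplification, dynein arms, central pair and radial spokes, axoneme rulers with tektins and CFAP proteins, and transport with other cilium genes. Of the 48 genes, 46 had a probe set naming that gene alone, out of 19775 genes measured. MCIDAS and CCDC39 were not analysed here, and PIFO and CCDC113 are listed in current annotation as CIMAP3 and CFAP263. Each gene was read from its brightest such probe set over all arrays.

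The cells were Hep3BTAp73β cells, a hepatocellular carcinoma line carrying a TAp73β cDNA under a doxycycline-released promoter together with a tetracycline repressor. Dox+ cells received doxycycline at 1 μg/mL for 12, 24 or 48 h, and Dox- cells of the same line did not. There were 2 Dox+ and 2 Dox- arrays at 12 h, the same at 24 h, and 3 of each at 48 h, 14 in all, described by the study as independent biological replicates. Resistant colonies had been picked after selection, the number of clones behind the arrays was not given in the sources used here, and no Dox+ cells without the TAp73β cDNA were among the samples, so an effect of doxycycline itself cannot be told apart from that of TAp73β.

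In a multiciliated epithelium, GMNC and MCIDAS act with E2F factors to start the program, MYB, FOXJ1, FOXN4 and the RFX factors carry it on, and CCNO, DEUP1, CCDC78, CEP63 and CEP152 serve the burst of centriole assembly that gives rise to basal bodies. The axoneme is then fitted with outer and inner dynein arms, which slide the doublets, and with radial spokes and a central pair, which regulate the beat. In mice TAp73 is needed for multiciliated cells and acts upstream of Foxj1, Rfx2 and Rfx3. Hepatocytes do not build motile cilia, so the question the arrays put is whether TAp73β brings any of this program into liver cancer cells.

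Levels below are log2 RMA values, where 1 unit is a doubling of signal, and differences are Dox+ minus Dox-. A gene was called changed at an adjusted p under 0.05 from limma, with Benjamini-Hochberg adjustment over all 19775 genes at that time. TP73 itself was high in all Dox+ arrays. It read 7.96 and 7.89 in Dox+ cells against 5.99 and 6.09 in Dox- cells at 12 h, 8.14 and 8.30 against 5.82 and 6.08 in Dox- cells at 24 h, and 7.95, 7.92 and 7.90 in Dox+ cells against 5.94, 6.04 and 5.90 in Dox- cells at 48 h. The groups did not overlap at any time (differences 1.89, 2.27 and 1.96, limma adjusted p = 0.00271, 1.03e-04 and 1.06e-07). As markers of the liver line, ALB averaged 14.38 and AHSG 13.94 over the 14 arrays. At 12 and 24 h, the signal at the 3′ end of the ACTB control transcript exceeded that at its 5′ end by more in Dox+ arrays (2.27 and 1.85 at 12 h, 1.35 and 1.45 at 24 h) than in Dox- arrays (1.60 and 1.50 at 12 h, 0.95 and 0.81 at 24 h). At 48 h the ranges overlapped (0.79 to 1.03 in Dox+ arrays, 0.86 to 0.89 in Dox- arrays). The part of this RNA quality measure in the 12 and 24 h results was not tested.

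A few genes of the program changed in Dox+ cells, in both directions, and no dynein arm gene was among them. At 48 h 4 members were higher in Dox+ cells, FOXJ1, PIFO, SPAG16 and TRAF3IP1, and 4 were lower, MYB, CEP152, RFX3 and RFX2. The share called among the 46 members was 8.70% in each direction, beside 11.3% of all genes higher and 12.9% lower, so neither count exceeded the background. At 24 h FOXJ1 and PIFO were higher and CEP152 was lower (4.35% and 2.17% of members, beside 3.01% and 2.81% of all genes). At 12 h 0 members were called by limma in either direction, beside 0.647% of all genes higher and 0.0202% lower, and 8 members (17.4%) had an unadjusted p under 0.05, beside 13.7% of all genes. The 46 members had a median difference of -0.09 (12 h), 0.09 (24 h) and 0.04 (48 h), and all genes -0.04, 0.02 and -0.02. With a further requirement of a 2-fold change, FOXJ1 alone was left at 24 h (background 1.1% higher and 0.278% lower) and at 48 h (1.52% and 0.238%). Without regard to the test, Dox+ arrays were all above Dox- arrays for 10 members at 12 h, 17 at 24 h and 7 at 48 h, or 21.7%, 37% and 15.2%, beside 19.3%, 26.6% and 17.4% of all genes. They were all below for 15, 6 and 7 members, or 32.6%, 13% and 15.2%, beside 27.6%, 23.7% and 21.9%.

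**Figure D1:**
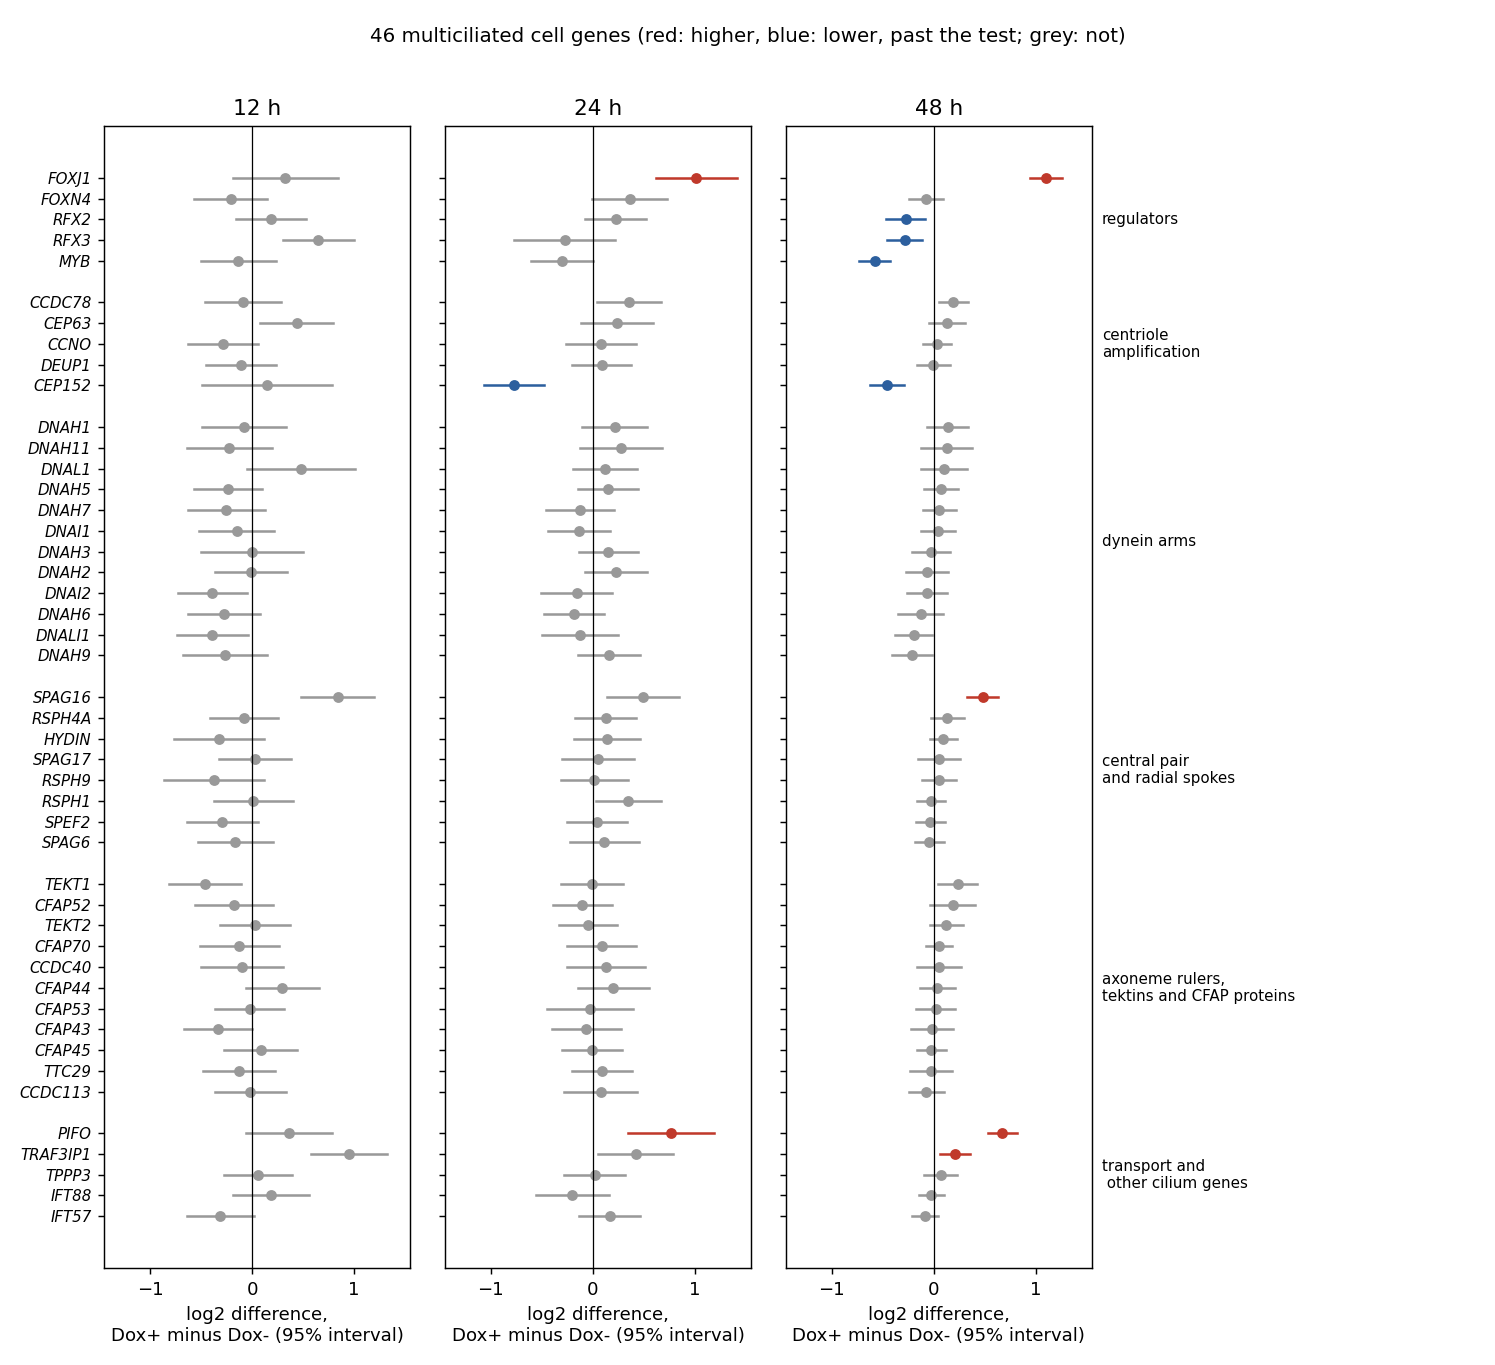
Difference in log2 RMA level (Dox+ minus Dox-) of the 46 measured members at 12, 24 and 48 h, with genes down the page by role; points are limma estimates, bars their 95% intervals, red and blue points genes called higher and lower in Dox+ cells (adjusted p under 0.05), and grey points all others. FOXJ1 reaches 1.02 at 24 h and 1.10 at 48 h, while the 12 dynein arm genes at 48 h lie between -0.21 and 0.14.

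FOXJ1, the forkhead factor that drives motile cilium genes, had the largest difference of the 46 members at 24 and 48 h. At 12 h it read 8.53 and 8.60 in Dox+ cells against 7.91 and 8.57 in Dox- cells, and these ranges overlapped. At 24 h it read 9.05 and 8.87 in Dox+ cells against 7.71 and 8.19 in Dox- cells, with no overlap (difference 1.02 ± 0.17 SE, 2.02-fold, limma adjusted p = 0.0127). At 48 h it read 9.12, 9.11 and 9.28 in Dox+ cells against 8.00, 8.06 and 8.15 in Dox- cells. These groups stood well apart relative to their spread (9.17 ± 0.09 in Dox+ cells and 8.07 ± 0.08 in Dox- cells, SD, n = 3 each; difference 1.10 ± 0.07 SE, 2.14-fold, limma adjusted p = 7.12e-06). Its Dox- level was well above the range of silent genes described further on.

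The RFX factors, which bind X-box sites in front of many cilium genes, were not higher beside FOXJ1 at 48 h. RFX3 read 6.30 and 6.43 in Dox+ cells against 5.79 and 5.65 in Dox- cells at 12 h, then 5.35 and 6.02 in Dox+ cells against 6.13 and 5.80 in Dox- cells at 24 h. At 48 h it read 6.42, 6.51 and 6.67 in Dox+ cells against 6.87, 6.81 and 6.78 in Dox- cells. Every Dox+ array was thus above every Dox- array at 12 h, without passing the test (difference 0.65 ± 0.15 SE, limma adjusted p = 0.14), and every one below at 48 h (difference -0.28 ± 0.07 SE, limma adjusted p = 0.0219). The Dox- level itself was about 1 unit higher at 48 h than at 12 h (means 6.82 and 5.72), and the change of the effect between 12 and 48 h passed in the fit of all 14 arrays but not once arrays were weighted by time point.

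RFX2 read 7.11 and 6.96 in Dox+ cells against 6.81 and 6.88 in Dox- cells at 12 h, and 6.82 and 6.64 in Dox+ cells against 6.47 and 6.54 in Dox- cells at 24 h. At 48 h it read 6.71, 6.64 and 6.47 in Dox+ cells against 6.90, 6.76 and 6.98 in Dox- cells, and the groups, just separate, differed by -0.27 ± 0.08 SE (limma adjusted p = 0.0428). Leaving out 1 library ended this call without Dox- replicate 1 (adjusted p = 0.113), Dox- replicate 3 (0.141), Dox+ replicate 2 (0.0778) or Dox+ replicate 3 (0.117). With every probe set tested singly, the same RFX2 probe set had a limma adjusted p of 0.0598 at 48 h. The other 2 RFX2 probe sets, with means of 5.29 and 6.14, differed by -0.37 (0.0157) and -0.08 (0.601). The RFX3 call ended without Dox- replicate 1 (0.0769) or 2 (0.0556) and without Dox+ replicate 1 (0.0774) or 2 (0.0686). It rests on the brightest probe set, and the other 3 RFX3 probe sets, with means of 3.58 to 4.59, did not pass at 48 h. Neither factor was higher in Dox+ cells at 48 h under any setting tried.

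MYB, which acts early in the program and is also a factor of dividing cells, was lower at 48 h. It read 8.33 and 8.58 in Dox+ cells against 8.64 and 8.54 in Dox- cells at 12 h, and 8.50 and 8.30 in Dox+ cells against 8.73 and 8.67 in Dox- cells at 24 h. At 48 h it read 8.27, 8.26 and 8.29 in Dox+ cells against 8.73, 8.90 and 8.93 in Dox- cells. The groups overlapped at 12 h only, and the 48 h difference was -0.58 ± 0.07 SE (0.671-fold, limma adjusted p = 0.000312).

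FOXN4, a forkhead factor upstream of motile ciliogenesis in the frog, was not called. It read 5.93 and 5.80 in Dox+ cells against 5.98 and 6.17 in Dox- cells at 12 h, 6.57 and 6.20 in Dox+ cells against 5.91 and 6.14 in Dox- cells at 24 h, and 5.91, 5.86 and 5.77 in Dox+ cells against 6.06, 5.84 and 5.87 in Dox- cells at 48 h. Another FOXN4 probe set, dimmer on average (5.40), differed by -0.29 at 48 h (limma adjusted p = 0.00993 over all probe sets). GMNC, the geminin family member at the head of the program and no member of the 48, had a dim probe set (mean 4.40). GMNC read 4.28, 4.24 and 4.31 in Dox+ cells against 4.46, 4.16 and 4.37 in Dox- cells at 48 h and was not called at any time.

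**Figure D2:**
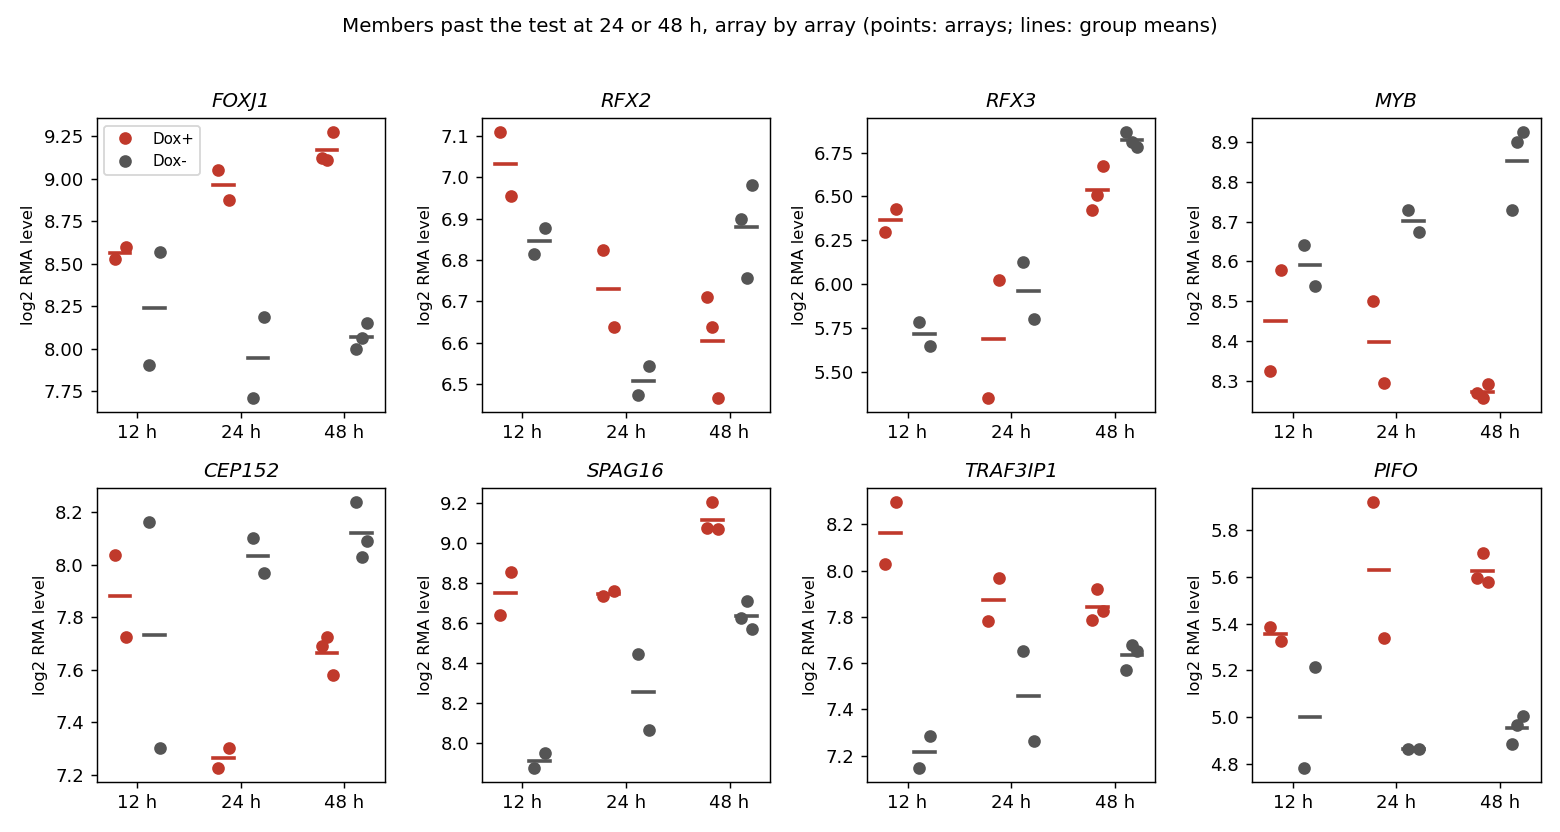
Log2 RMA level of the 8 members called at 24 or 48 h, 1 panel per gene, with Dox+ arrays (red) left of Dox- arrays (grey) at 12, 24 and 48 h; points are arrays and lines group means, and each panel has its own vertical scale. FOXJ1 and PIFO in Dox+ cells lie above Dox- cells at 24 and 48 h, and MYB, RFX2, RFX3 and CEP152 lie below at 48 h.

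Of the 5 genes of centriole amplification, CEP152 was the only one called. CEP152, which recruits the kinase PLK4 to centrioles, read 8.04 and 7.72 in Dox+ cells against 8.16 and 7.30 in Dox- cells at 12 h, with the Dox+ arrays inside the Dox- range. At 24 h it read 7.22 and 7.30 in Dox+ cells against 8.10 and 7.97 in Dox- cells, and at 48 h 7.69, 7.72 and 7.58 in Dox+ cells against 8.24, 8.03 and 8.09 in Dox- cells. Both sets stood apart, with differences of -0.77 ± 0.13 SE (limma adjusted p = 0.0117) at 24 h and -0.46 ± 0.07 SE (limma adjusted p = 0.00183) at 48 h. The 24 h call ended without Dox- replicate 1 (adjusted p = 0.0535), and the 48 h call ended when all 14 arrays shared 1 fit (adjusted p = 0.078). Both calls rest on the brightest probe set. The other 4 CEP152 probe sets, with means of 4.17 to 4.49, passed at no time and differed by -0.23 to 0.05 at 48 h.

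CCNO and DEUP1, which mark the multiciliated lineage more narrowly, were not called at any time. CCNO, a cyclin-like protein required for multicilia, read 5.39 and 5.24 in Dox+ cells against 5.63 and 5.57 in Dox- cells at 12 h, 5.72 and 5.41 in Dox+ cells against 5.40 and 5.57 in Dox- cells at 24 h, and 5.56, 5.48 and 5.43 in Dox+ cells against 5.43, 5.49 and 5.45 in Dox- cells at 48 h. DEUP1, the scaffold of the deuterosomes on which new centrioles form, read 3.93 and 4.11 in Dox+ cells against 4.11 and 4.15 in Dox- cells at 12 h, 4.12 and 3.98 in Dox+ cells against 3.96 and 3.97 in Dox- cells at 24 h, and 3.89, 3.88 and 3.96 in Dox+ cells against 3.99, 3.97 and 3.78 in Dox- cells at 48 h. At 48 h the groups overlapped for both, and the 95% intervals of the differences were -0.10 to 0.17 for CCNO and -0.17 to 0.16 for DEUP1. CCDC78, placed at the deuterosome in the frog, read 4.37, 4.26 and 4.29 in Dox+ cells against 4.19, 4.07 and 4.09 in Dox- cells at 48 h, a difference of 0.19 that missed the test (limma adjusted p = 0.0561). CEP63, the partner of CEP152 at centrioles, differed by 0.13 (limma adjusted p = 0.298).

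None of the 12 dynein arm genes was called at any time. At an unadjusted p under 0.05 there were 2 at 12 h, 0 at 24 h and 2 at 48 h, beside 13.7%, 20.2% and 34.2% of all genes. They comprise the heavy chains DNAH1, DNAH2, DNAH3, DNAH5, DNAH6, DNAH7, DNAH9 and DNAH11, the intermediate chains DNAI1 and DNAI2, the light intermediate chain DNALI1 and the light chain DNAL1. Their 48 h differences ran from -0.21 to 0.14, and all 12 of the 95% intervals lay between -0.41 and 0.38, inside a 2-fold change in either direction. DNAH5, an outer arm heavy chain, read 5.38, 5.27 and 5.32 in Dox+ cells against 5.24, 5.38 and 5.15 in Dox- cells at 48 h, and DNAI1 read 4.90, 4.88 and 5.11 in Dox+ cells against 4.87, 4.94 and 4.96 in Dox- cells. In 2 genes of the 12, DNAH9 and DNALI1, every Dox+ array was below every Dox- array at 48 h (differences -0.21 and -0.20, limma adjusted p = 0.111 and 0.115). The same separation held for 21.9% of all genes at that time. All 48 probe sets of these 12 genes were also tested singly, and 0 passed at 12, 24 or 48 h.

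SPAG16, a central pair protein with several isoforms, was the only gene called of the 8 in the central pair and radial spoke role. It read 8.64 and 8.85 in Dox+ cells against 7.87 and 7.95 in Dox- cells at 12 h, 8.73 and 8.76 in Dox+ cells against 8.44 and 8.06 in Dox- cells at 24 h, and 9.07, 9.21 and 9.07 in Dox+ cells against 8.62, 8.71 and 8.57 in Dox- cells at 48 h. The groups were separate at all 3 times. The difference was 0.84 ± 0.15 SE at 12 h (limma adjusted p = 0.0713), 0.49 ± 0.15 SE at 24 h (0.108) and 0.48 ± 0.07 SE at 48 h (0.000829). Its brightest probe set carries this call, and the other SPAG16 probe sets, with means of 3.51 and 3.49, differed by -0.01 and -0.13 at 48 h. The remaining 7 genes, SPAG6, SPAG17, SPEF2 and HYDIN of the central pair and the radial spoke heads RSPH1, RSPH4A and RSPH9, differed by -0.04 to 0.13 at 48 h, with 95% intervals between -0.19 and 0.29.

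The 11 axoneme ruler, tektin and CFAP genes gave no call at any time (2, 0 and 1 had an unadjusted p under 0.05 at 12, 24 and 48 h, beside the same shares of all genes). At 48 h their differences ran from -0.07 (CCDC113) to 0.24 (TEKT1), with 95% intervals between -0.24 and 0.43. TEKT1, which lines the inside of the doublets, read 5.21, 5.41 and 5.28 in Dox+ cells against 5.03, 5.21 and 4.95 in Dox- cells at 48 h, just overlapping (limma adjusted p = 0.0728). It had read 5.21 and 5.06 in Dox+ cells against 5.53 and 5.66 in Dox- cells at 12 h, so the sign differed between those times without a call at either. CCDC40, which sets the spacing of dynein arms together with CCDC39, differed by 0.05 at 48 h on its brightest probe set, while 1 of its 4 dimmer probe sets differed by 0.45 (limma adjusted p = 0.0298 over all probe sets).

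Of the 5 transport and other cilium genes, PIFO and TRAF3IP1 were called. PIFO, known from the mouse to act at the basal body during primary cilium disassembly, read 5.39 and 5.33 in Dox+ cells against 4.78 and 5.22 in Dox- cells at 12 h, 5.92 and 5.34 in Dox+ cells against 4.87 and 4.87 in Dox- cells at 24 h, and 5.59, 5.70 and 5.58 in Dox+ cells against 4.89, 4.97 and 5.01 in Dox- cells at 48 h. Dox+ arrays were above all Dox- arrays at each time. The 48 h difference of 0.67 ± 0.06 SE (1.59-fold, limma adjusted p = 8.6e-05) passed without any 1 library. The 24 h difference of 0.77 ± 0.19 SE (limma adjusted p = 0.0492) ended without Dox- replicate 1 (0.155), Dox- replicate 2 (0.13) or Dox+ replicate 1, which also lowered it to 0.47 (0.265). PIFO has 1 probe set, whose mean of 5.25 lies within the signal range of silent olfactory receptor genes.

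TRAF3IP1, the IFT54 subunit of the intraflagellar transport complex that carries cargo along the axoneme, read 8.03 and 8.30 in Dox+ cells against 7.15 and 7.28 in Dox- cells at 12 h. It read 7.78 and 7.97 in Dox+ cells against 7.65 and 7.26 in Dox- cells at 24 h, and 7.79, 7.92 and 7.83 in Dox+ cells against 7.57, 7.68 and 7.65 in Dox- cells at 48 h. The groups were separate at all 3 times. The difference was 0.95 ± 0.16 SE at 12 h (limma adjusted p = 0.057), 0.42 ± 0.16 SE at 24 h (0.187) and 0.21 ± 0.06 SE at 48 h (0.0408). The 48 h call ended whichever library was left out (adjusted p between 0.0537 and 0.15). At 12 h, leaving out Dox+ replicate 1 gave 1.08 with an adjusted p of 0.0405. The other 3 genes of this role, IFT88, IFT57 and TPPP3, differed by -0.09 to 0.07 at 48 h. IFT88, a core subunit of the same transport complex as TRAF3IP1, read 8.01, 7.98 and 8.00 in Dox+ cells against 8.04, 8.00 and 8.03 in Dox- cells.

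The brightness of the members bears on how much of the program could have been read. Probe sets differ in affinity, so brightness does not rank genes by expression, but 82 olfactory receptor genes, silent in most tissues, give a scale for signal without transcript. Their means over 14 arrays had a median of 4.36 and a 95th percentile of 5.66, and 31 of the 46 members lay at or below that percentile. All 5 measured regulators were above it, as were SPAG16, TRAF3IP1, IFT88, CEP63 and CEP152, but only 3 of 12 dynein arm genes (DNAH3, DNAH6 and DNAL1) and 2 of 11 ruler, tektin and CFAP genes (CFAP44 and CFAP70) were. These levels are those of the brightest probe set. The other probe sets of DNAH6, DNAL1, CFAP44 and CFAP70, and most of those of DNAH3, read below 5.66. Of the 15 brighter members, 3 were called higher and 4 lower at 48 h, where 36.8% of all genes above the same level were called in either direction. Of the 31 dimmer members, PIFO alone was called, where 5.64% of all dimmer genes were. A change in a gene read near background is understated on this scale, so a small transcript gain in the dim axoneme genes was not detectable here.

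**Figure D3:**
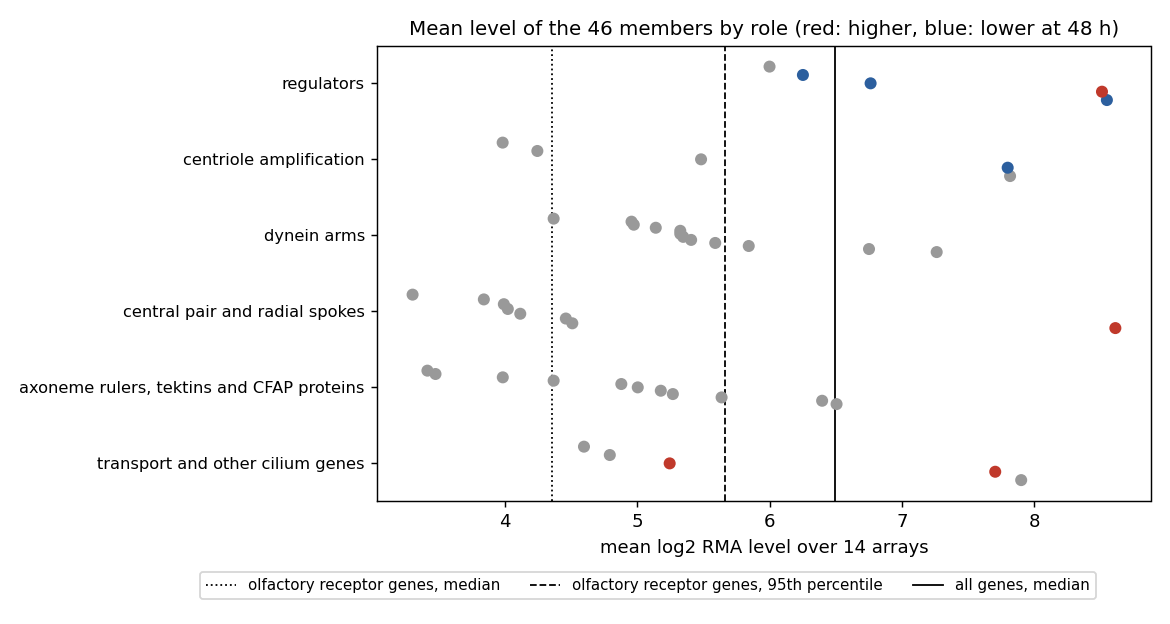
Mean log2 RMA level over 14 arrays of the 46 members, by role; red points were called higher and blue points lower in Dox+ cells at 48 h, and vertical lines mark the median (4.36) and 95th percentile (5.66) of 82 olfactory receptor genes and the median of all genes (6.49). The regulators lie right of the olfactory receptor lines, while 9 of 12 dynein arm genes and 7 of 8 central pair and spoke genes do not pass the 95th percentile.

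Over the 14 arrays, the member whose level most resembled that of FOXJ1 was PIFO (Pearson r = 0.93), followed by SPAG16 (0.66). Among all other genes the most similar were CTSH (r = 0.96), DCAKD (0.95), DLGAP1-AS1 (0.95), S100A4 (0.95) and LOC100996740 (0.95). These values describe likeness over arrays that share the same groups and times.

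X-box sites offer a look at the members from the sequence side, without use of the arrays. The X-box core was searched as GTTGCC on both strands (GGCAAC on the other) in the 250 bases before the listed start of each gene in RefSeq GRCh38.p14. It was found in 18 of the 41 members with a listed sequence (43.9%), beside 10.1% of 27305 promoters of the same length. Of these 18, 17 were not called at 48 h or not analysed here. The following windows, with the core in capitals and written 5′ to 3′ on the gene's strand, show it for genes of several roles that were not called or not analysed here and for SPAG16, the only called member that held it.
MCIDAS, chr5:55227412-55227441 (-): gggggaagcccgGTTGCCaggttgggttta
CCNO, chr5:55233828-55233857 (-): acccgggctccgGTTGCCcaggtaacgcag
DEUP1, chr11:93330564-93330593 (+): cgacgtccccatGGCAACacgcggcggcgc
CCDC78, chr16:726447-726476 (-): aacagaggccttGGCAACgcacttagcagt
DNAH1, chr3:52316202-52316231 (+): ccataggctgatGTTGCCatGGCAACccgg
DNAI1, chr9:34458559-34458588 (+): ctgcggtgactcGGCAACtccacttccggg
RSPH4A, chr6:116616417-116616446 (+): ccctcgaatcctGGCAACaggcgcggtgag
TEKT1, chr17:6831759-6831788 (-): cctctttgccctGGCAACgcgtcacttgtt
SPAG16, chr2:213284259-213284288 (+): tcgcgttaactaGGCAACatcGTTGCCacg

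In the DNAH1 window GTTGCC and GGCAAC lie 2 bases apart in that order, and in the SPAG16 window 3 bases apart in the opposite order. Only these exact letters were searched, so variant X-box letters were not counted and complete X-boxes were not identified. In the CCNO window, and in SPAG16 running past its window, GTTGCC is followed after 2 bases by GGTAAC, which was not searched. SPAG16 held 3 matches in its 250 bases, the furthest beginning 193 bases and the nearest 36 bases before the start. The forkhead letters TGTTTAC, searched on both strands, were found in 5 of the 41 members (12.2%), beside 2.98% of all promoters. A match is only a run of letters in a fixed window. FOXJ1 and RFX2 were among the 7 members without a listed promoter sequence.

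Genes that share structures with the members were counted at 48 h in lists put together around the program. The shares of all genes set beside these and later lists were not matched for brightness. Of all genes, 11.3% were higher and 12.9% lower at 48 h. Of 48 measured motile cilium genes outside the members, 3 were higher (6.25%) and 1 was lower (2.08%), or 5 and 0 on the most variable probe sets. The 3 were CAPS, a calcium-binding protein abundant in ciliated cells, CFAP251 of the radial spoke base, and STK36, a kinase needed for the central pair in mice (differences 1.31, 1.22 and 0.44, limma adjusted p = 8.94e-07, 1.40e-05 and 0.00158). DNAH14, a dynein heavy chain, was lower by a difference of -0.24 (limma adjusted p = 0.0169), a call lost without Dox- replicate 2 (0.0611), Dox- replicate 3 (0.0521) or Dox+ replicate 1 (0.0605). CAPS read 10.33, 10.31 and 10.27 in Dox+ cells against 8.94, 9.02 and 9.04 in Dox- cells at 48 h, and CFAP251 read 8.57, 8.63 and 8.83 in Dox+ cells against 7.44, 7.58 and 7.36 in Dox- cells. Among 19 dynein assembly and docking factors, SPAG1 was higher (difference 0.76) and DNAAF2, DNAAF3 and DNAAF5 were lower (-0.27, -0.31 and -0.25). These counts, 1 higher and 3 lower of 19, stood beside the same 11.3% and 12.9% of all genes. The DNAAF2 call was lost without Dox- replicate 1 (0.0681) or 2 (0.0716) and without Dox+ replicate 1 (0.0584) or 2 (0.0544).

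Intraflagellar transport also serves the primary cilium, the lone non-motile cilium of most cells. Of 28 intraflagellar transport genes outside the members, 14 were higher (50%) and 1, WDR35, was lower, with a list median of 0.21 beside -0.02 for all genes. Most genes of this list read above 5.66, the olfactory receptor level used for the members. Of all genes with a mean above that level, 36.8% were called in either direction at 48 h. IFT70B, a subunit of the IFT-B complex, read 5.98, 5.97 and 6.02 in Dox+ cells against 4.59, 4.74 and 4.83 in Dox- cells (difference 1.28, limma adjusted p = 3.38e-06). IFT81, the subunit that binds tubulin with IFT74, read 7.45, 7.64 and 7.48 in Dox+ cells against 6.81, 6.83 and 6.75 in Dox- cells (difference 0.73, limma adjusted p = 8.54e-05). IFT74 and the kinesin-2 motor KIF3A differed by 0.57 and 0.52. In all 4 genes the groups were separate. Of the 27 primary cilium and BBSome genes, 7 were higher and 3 lower, beside 11.3% and 12.9% of all genes. The largest differences were those of BBS2, BBS12, TCTN1 and BBS1 (0.60, 0.49, 0.46 and 0.43). BBS12 read 4.82 to 5.00 in Dox+ cells, within the signal range of silent olfactory receptor genes. The X-box core was present in 12 of 26 promoters of the transport list (46.2%), and 6 of those 12 genes were called higher, beside 14 of all 28 genes of the list.

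Centriole duplication genes were mostly lower. Of 20 centriole duplication genes outside the members, 12 were lower in Dox+ cells (60%) and 4 higher, beside 12.9% and 11.3% of all genes, with a list median of -0.22. All genes of this list read above 5.66, the olfactory receptor level used for the members. Among all genes with a mean above that level, the nearer background, 36.8% were called in either direction at 48 h. Without the probe sets whose names end in _x_at or _s_at, 7 of 16 genes were lower and 3 higher. PLK4, the kinase that starts centriole duplication, read 8.02, 8.08 and 7.74 in Dox+ cells against 8.66, 8.72 and 8.72 in Dox- cells (difference -0.75, limma adjusted p = 0.000316). CPAP, POC1A and PCM1, a centriole elongation factor, a centriole wall protein and the scaffold of centriolar satellites, differed by -0.59, -0.56 and -0.53. Among the other 15 regulators of multiciliated cells, TP73, the induced gene itself, was higher, as were JAG1 (1.53) and NOTCH1 (0.89). CDC20, E2F5 and FBXO43 were lower (-0.71, -0.42 and -0.37), beside 11.3% of all genes higher and 12.9% lower. FBXO43 alone was lower among the 10 genes left without _x_at and _s_at probe sets. NOTCH1 and its ligand JAG1 belong to the pathway that holds epithelial cells back from the multiciliated fate.

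**Figure D4:**
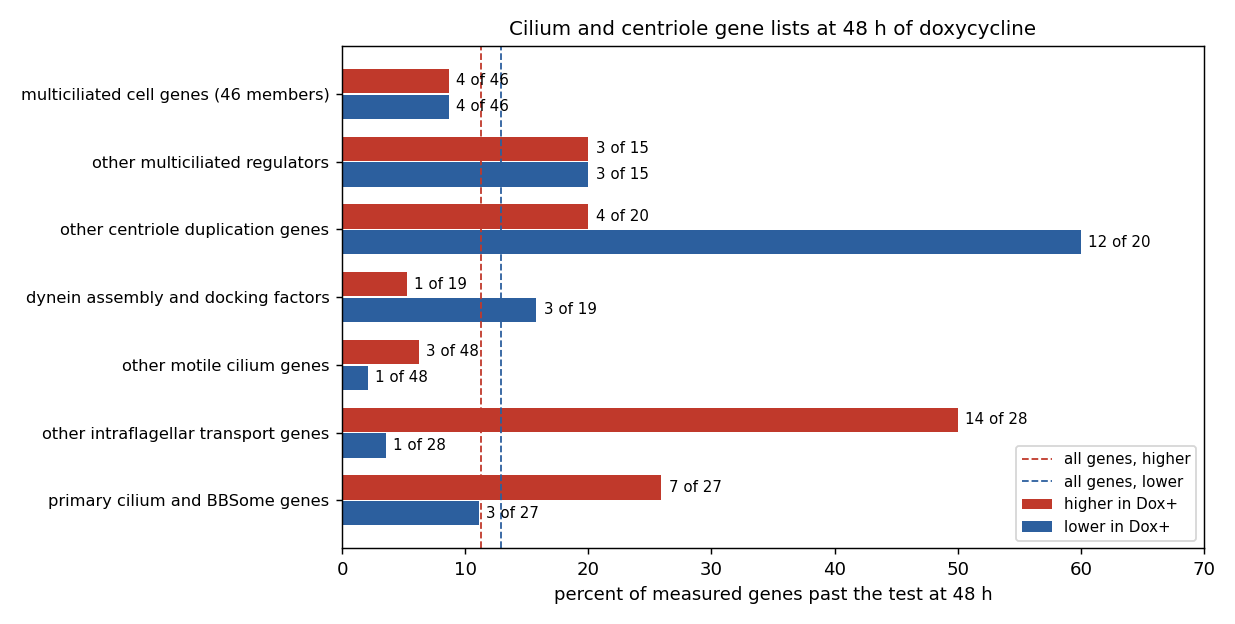
Percent of measured genes called higher (red) or lower (blue) in Dox+ cells at 48 h (horizontal axis) for the 46 members and 6 lists of related genes down the page, with counts beside the bars; dashed lines mark the share of all 19775 genes called higher (11.3%) and lower (12.9%). Intraflagellar transport genes reach 50% higher and centriole duplication genes 60% lower, while the members lie at 8.70% each way. The list of other regulators includes the induced TP73. The dashed lines are not matched to the brightness of each list.

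Markers of other airway epithelial cells were also read. Of 5 basal and squamous markers, 3 were higher at 48 h, NGFR, KRT15 and KRT5 (differences 0.81, 0.61 and 0.30), beside 11.3% of all genes. The KRT5 call was lost without Dox- replicate 1 (limma adjusted p = 0.053) or 2 (0.104) and without Dox+ replicate 1 (0.0903) or 2 (0.107). At 48 h these 3 genes read 5.01 to 5.49 in Dox+ cells, within the signal range of silent olfactory receptor genes. Of the 7 airway secretory markers, 0 were called by limma at any time (1, 0 and 0 had an unadjusted p under 0.05), with differences between 0.01 and 0.19 at 48 h. Of 10 hepatocyte markers, 6 were lower and 1 higher, beside 12.9% and 11.3% of all genes. APOA1 and FGA, 2 of the 6, depend on the probe set. Without _x_at and _s_at probe sets their differences were -0.03 (limma adjusted p = 0.869) and 0.03 (0.86), and 5 of 8 markers were lower. The APOA1 probe set left in that setting was dim (mean 5.075), within the signal range of silent olfactory receptor genes. On the most variable probe sets 8 of 10 markers were lower and 1 higher. Leukocyte markers (0 of 5 higher, 1 lower, LYZ) and endothelial and fibroblast markers (1 of 8 higher, DCN, 0 lower) had few calls. The DCN call (difference 0.20) ended whichever library was left out (adjusted p between 0.0697 and 0.123) and passed in 1 of 14 other settings.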

How the data were processed

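RNA of 14 cultures had been hybridised to 1-colour Affymetrix U133 Plus 2.0 arrays. The deposited values are log2 RMA levels made by the authors (R 3.5.1 per the labels), already background-corrected, quantile-normalized and summarised, and according to the methods outlying arrays had been left out. Array medians lay between 5.15 and 5.28, and the number of arrays limits the precision. Of 54675 probe sets, 62 were hybridisation controls, 41091 named 1 gene, 1801 several and 11721 none; 41037 were matched to current symbols by Entrez ID. The probe set with the highest mean stood for each of 19775 genes. Dox+ and Dox- arrays were compared at each time with lmFit and eBayes (limma 3.58.1, R 4.3.3), with Benjamini-Hochberg adjustment and a threshold of 0.05, a procedure tested on simulated data. The change of an effect between times was taken from 1 fit of 14 arrays and reported only where it also passed with array weights. Members and gene lists were chosen with earlier results of these data known. All members were accounted for. Given array by array were those called at any time and named regulators and centriole genes, and from each other list the text names up to 4 genes with the largest called change, 5 genes most like FOXJ1, and any further gene where a count is spelled out, chosen after its values were seen. Same-numbered replicates were checked for pairing (correlation of deviations 0.26 at 12 h, -0.11 at 24 h, 0.09 to 0.11 at 48 h) and were not treated as pairs. Alternatives covered probe set choice, filters, normalization, the test, the block and each library left out. Promoters came from RefSeq GRCh38.p14; a further motif was searched and is not reported here.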

Additional observations from a re-analysis of the deposited data

Results flagged for a closer look

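No member was reported as changing its effect between times. Of the related genes named, these passed the test of the difference between effects, both unweighted and with array weights (limma, 1 fit of 14 arrays). The JAG1 effect at 48 h exceeded that at 12 h by 1.053 (adjusted p = 0.00083, weighted 0.00505) and that at 24 h by 1.091 (0.00156, weighted 0.00109). The JAG1 Dox+ level was 10.77 to 11.11 over all 3 times, while the Dox- level was 9.42 to 9.54 at 48 h, against 10.30 to 10.61 at 12 and 24 h. On the most variable JAG1 probe set the differences were 1.198 (0.0464, weighted 0.0598) and 1.899 (0.00987, weighted 0.00125). The CFAP251 effect at 48 h exceeded that at 24 h by 0.892 (0.0267, weighted 0.0258), and the IFT70B effect by 1.172 (0.0376, weighted 0.0113). Both rest on the brightest probe set: on the most variable one the difference was 0.162 for CFAP251 (0.762) and -0.066 for IFT70B (0.944). For hepatocyte markers the 48 h effect minus the 12 h effect was -0.775 for APOA1 (0.0143, weighted 0.0475) and 0.856 for SERPINA1 (0.0105, weighted 0.0264). Without _x_at and _s_at probe sets these were 0.087 for APOA1 (0.836), on a dim probe set (mean 5.075), and 0.526 for SERPINA1 (0.146). On the most variable probe set the APOA1 value was -0.774 (0.0185, weighted 0.0612). The LYZ effect at 48 h minus that at 24 h was -0.939 (0.0189, weighted 0.0147), but 0.158 (0.969) on the most variable probe set. These probe set alternatives were chosen after seeing the data.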

How the results depend on the processing

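At 48 h, FOXJ1, SPAG16 and MYB passed under every alternative that gave a value, apart from the 2-fold requirement, which FOXJ1 alone met. PIFO passed under the same alternatives, but was among the genes left out by the filter on dim genes. With all 14 arrays in 1 fit, 3 members were higher (RFX3, SPAG16, TRAF3IP1) and 1 lower (TEKT1) at 12 h, and 1 lower (MYB) at 48 h. At 24 h 1 member was higher (FOXJ1) with dim genes left out, with the most variable probe set, with every probe set tested singly, or after quantile normalization. By the methods' t-test, 0 were higher or lower at 24 h and 2 lower at 48 h; TP73 then had adjusted p = 0.325 at 12 h (1.886) and 0.27 at 24 h (2.272). With a 2-fold requirement 1 was higher and 0 lower at 24 and at 48 h. The effect at 48 h differed from that at 12 h for 3 members, and for 0 with array weights. Without 1 library, 0 to 1 members were higher and 0 to 0 lower at 12 h, 1 to 2 and 0 to 1 at 24 h, and 3 to 4 and 2 to 4 at 48 h; TP73 at 12 h ranged from 1.84 to 1.93. Same-numbered replicates share only a number; as a block it gave 2 higher at 12 h (SPAG16, TRAF3IP1), and at 48 h 6 higher and 3 lower, RFX2 being lost (adjusted p = 0.0667). At 48 h each array correlated best with its own number; crossed numbers at 24 h, a setting chosen after seeing the data, gave 2 higher and 1 lower. Reversed were LYZ at 24 h (-1.511 on another probe set), DNAH14 at 48 h (0.008, most variable probe set), and FGA (0.025) and DCN (-0.142) at 48 h without _x_at and _s_at probe sets. The cause of these changes was not tested.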
